A study of Mus musculus with 16 samples.

Results

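Destabilization of the medial meniscus (DMM) was set against sham surgery over all 16 arrays of the study, 8 with DMM in their title and 8 with sham, with 1 and 6 weeks averaged. Every mouse was a male wild-type C57BL6 aged 10 to 12 weeks when both knees were operated. In DMM the ligament that holds the medial meniscus to the tibia was exposed and cut, and in the sham operation it was exposed and left whole. Harvest at 1 or 6 weeks made 4 groups of 4 arrays, and each array held RNA from 1 joint of 1 mouse. The tissue was subchondral bone of the medial tibia, cut by laser from 10 µm sections of decalcified, frozen bone and pooled within each joint. Cy3 labelling started from 100 ng of total RNA. The question was which transcripts moved in the same direction at both times.

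Subchondral bone is the plate of bone under the joint cartilage. Osteoblasts build it, osteocytes sense load within it, osteoclasts remove it, and it borders on blood-forming marrow. In osteoarthritis this plate is known to thicken and remodel beneath damaged cartilage. DMM is a standard way to bring on the disease in mice by making the knee unstable.

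No gene passed the test for a difference between DMM and sham when both times were pooled. The limma fit had 1 term each for surgery, week and slide, and called 0 of 28250 genes at an adjusted p under 0.05 (0% of genes, smallest adjusted p = 0.9993). Among single genes, osteocalcin (Bglap), the small bone matrix protein of mature osteoblasts, and the stress-induced nuclear protein Nupr1 were among the 12 with the smallest p that lay higher after DMM on both slides at both weeks. Transcription factor genes Gata2 and Gata3 were among the 12 that lay lower. The groups of osteoblast and fibrous matrix genes were mostly higher after DMM and platelet-lineage genes mostly lower, with 0 members called, and no list kept its direction on both slides at both weeks.

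The depth of these arrays was uneven. Signal at the 75th percentile ran from 429 to 1149, 65.2% to 79.5% of probes lay well above background, and 0 spots were saturated. The 6-week sham replicate 2 was the dimmest array and stood apart on the first principal component (176.6, the other 15 arrays -69.8 to 71.4), which held 41.6% of the variance. The arrays lay on 2 slides of 8, each with 2 arrays of every group, so that week and slide together made 4 strata of 2 DMM and 2 sham arrays. Bone was present by its markers, with 24 of 25 osteoblast, 21 of 21 osteoclast and 13 of 14 osteocyte markers well above background on all 16 arrays. So were 30 of 30 erythroid and 26 of 26 neutrophil markers of the marrow, and 20 of 28 cartilage markers. In such mixed tissue, fewer cells of a type and less RNA per cell cannot be told apart. The labels give 1 mouse per array, and every level below is a log2 signal relative to the 75th percentile of its array.

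Osteocalcin is encoded in the mouse by a cluster of near-identical genes on chromosome 3, so the probes are shown first. The capitals mark an ATG triplet in the Bglap probe, and in the other 2 the bases at which Bglap2 and Bglap3 differ within a shared stretch of 25 bases.
Bglap: cagacaccATGaggaccatctttctgctca
Bglap2: ctatcaGaccagtatggcttGaagaccgcc
Bglap3: aAaccagtatggcttAaagaccgcctacag
These 30-base stretches of the 60-base probes lie on the minus strand of mm9 at chr3:88188316-88188345, chr3:88181822-88181851 and chr3:88172703-88172732. Bglap2 and Bglap3 thus differ at 2 of the 25 shared bases, and signal from one copy may reach the probe of another. Where the probes lie within their genes was not analysed here, because no annotation of that build was used.

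Bglap ran from 5.62 to 7.64 on the 8 DMM arrays, with a median of 6.79, and from 4.97 to 6.73 on the 8 sham arrays, with a median of 5.87. At 1 week the sham arrays gave 6.63, 4.97, 5.09 and 5.79, and the DMM arrays 7.58, 5.62, 6.25 and 7.64. At 6 weeks the sham arrays gave 5.95, 6.32, 5.31 and 6.73, and the DMM arrays 6.64, 6.65, 7.15 and 6.92. The groups overlapped at both weeks, and 7 of 8 DMM arrays lay above the mean of the sham arrays of their own week and slide. The pooled difference was 0.96 ± 0.33 (standard error, n = 8 each), or 1.94-fold with a 95% interval of 1.20 to 3.15. It was 1.15 at 1 week and 0.76 at 6 weeks. The limma p was 0.0103 unadjusted and 0.9993 adjusted over all genes. An exact permutation of the surgery labels within week and slide, 2-sided over 1296 arrangements, gave p = 0.0324, where 0.00154 is the smallest p this design allows. That exact p was above 0.05 without DMM replicate 1 or 4 at 1 week, sham replicate 2 or 3 at 1 week, DMM replicate 3 at 6 weeks or sham replicate 3 at 6 weeks, and reached 0.110 at most. Without the 6-week sham replicate 2 the difference was 1.02.

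The other probes of the osteocalcin cluster lay in the same direction. The second Bglap probe was higher by 0.84 ± 0.34, Bglap2 by 0.60 ± 0.25, and Bglap3, which was named after its values were seen, by 0.62 ± 0.25. Since the copies can share signal, these are not independent measurements. Ifitm5, which encodes an osteoblast membrane protein of mineralizing bone, was higher by 0.62 ± 0.29. Its DMM arrays ran from -0.70 to 1.61 (median 0.13) and its sham arrays from -1.30 to 0.94 (median -0.30). At 6 weeks all 4 DMM arrays (-0.02 to 0.29) lay above all 4 sham arrays (-1.30 to -0.10), while at 1 week the groups overlapped. The share of all genes that separate in this way at a single week was not counted, so this is a description only.

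The part of the Bglap promoter that is known for osteoblast control could be read from RefSeq (GRCm38.p6). The first stretch holds the Runx core ACCACA 132 bases before the start of transcription and the second holds TATAAA 27 bases before it, in capitals.
Bglap Runx core: ccgcaatcacctACCACAgcatcctttggg
Bglap TATA box: cagactagcggaTATAAAtgctactggacg
They lie on the minus strand at chr3:88384581-88384610 and chr3:88384476-88384505. Searched on both strands in the 250 bases before the start, ACCACA was found in 14.0% and TATAAA in 12.4% of 32851 RefSeq promoters. A match is a description of the sequence and says nothing of binding here.

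Nupr1 encodes a small chromatin protein that cells make under nutrient and endoplasmic reticulum stress. It was measured by 2 probes that did not move alike.
Nupr1 main probe: ggatacaggaccttggagaaattaggagtt
Nupr1 second probe: aatctgaaccagactacagtgtgtgtgtgt
The main probe (30 of its 60 bases, at chr7:133766978-133767007 of mm9, minus strand) was higher after DMM by 0.74 ± 0.20. The second (chr7:133769416-133769445) differed by -0.08 ± 0.16 and was dimmer, with a mean level of -1.91 against 3.07 for the main probe. On the main probe the 8 DMM arrays ran from 3.06 to 4.20 (median 3.23) and the 8 sham arrays from 2.38 to 3.13 (median 2.66). At 1 week the DMM arrays gave 4.20, 3.06, 3.20 and 4.10, all above the sham arrays at 2.93, 2.42, 2.46 and 2.84. Here too the share of all genes that separate at a single week was not counted. At 6 weeks the DMM arrays gave 3.27, 3.07, 3.48 and 3.13 and the sham arrays 2.48, 2.93, 2.38 and 3.13, and sham replicate 4 (3.13) reached the lower 2 of the 4 DMM arrays. All 8 DMM arrays lay above the sham mean of their week and slide. Nupr1, like Bglap, was ranked by a small p among genes with 1 sign on both slides at both weeks. This count and the fold intervals of both genes come from the values used in that ranking and are not separate support. The difference was 0.98 at 1 week and 0.50 at 6 weeks, and 1.67-fold pooled (95% interval 1.25 to 2.23). The limma p was 0.00178 unadjusted and 0.9993 adjusted over all genes. Without the 6-week sham replicate 2 the pooled difference was 0.80 on the log2 scale.

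The promoter of Nupr1 holds the element TTGCATCA, a form of the site bound by C/EBP and ATF stress factors, 110 bases before the start.
Nupr1 stress element: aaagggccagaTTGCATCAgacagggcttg
It lies at chr7:126625562-126625591 of GRCm38.p6, minus strand. On either strand this motif was found in 0.791% of the RefSeq promoters over the same 250 bases.

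**Figure D1:**
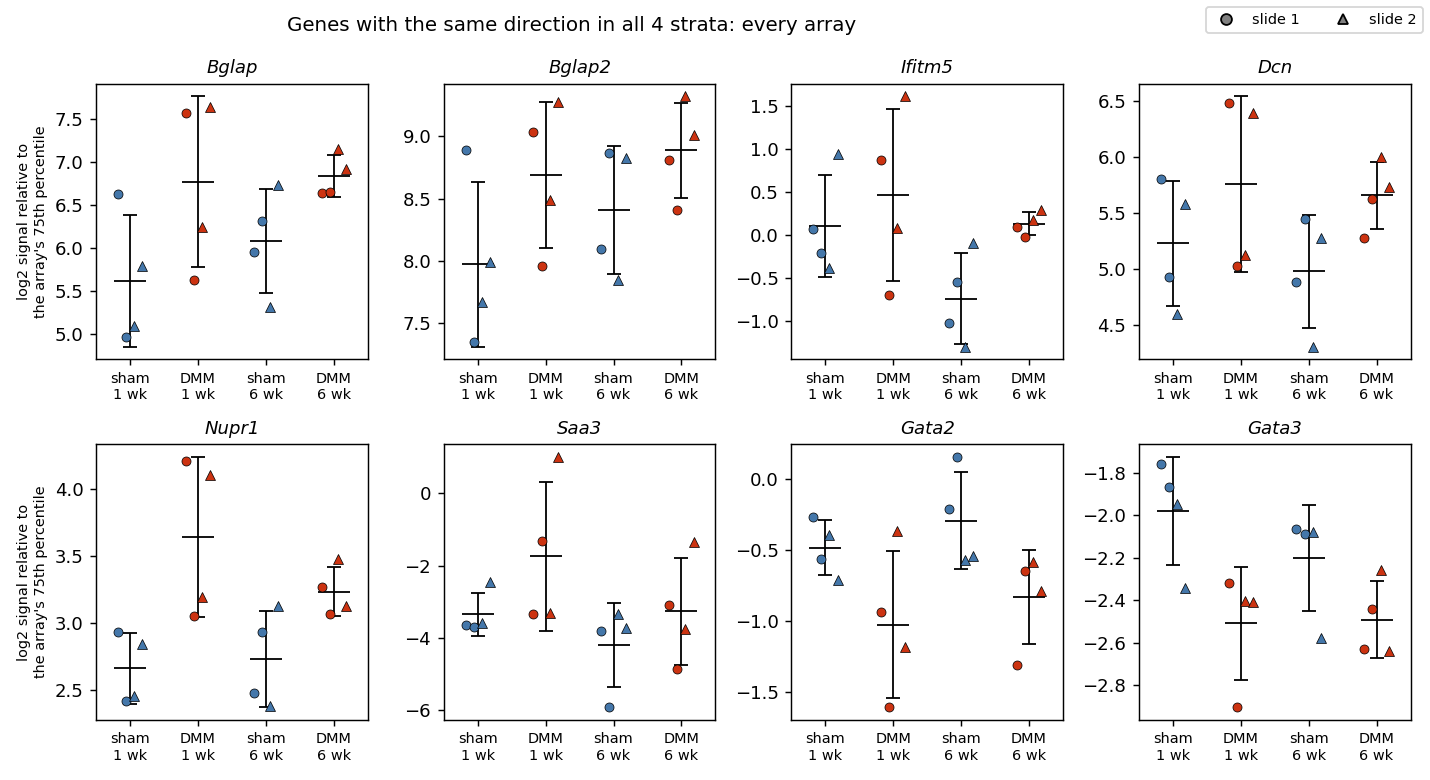
Log2 signal relative to the array's 75th percentile (y axis) of 8 genes on every array, by surgery and week (x axis); blue is sham, red is DMM, circles are slide 1 and triangles slide 2, and black bars are the mean and SD of 4 arrays. Nupr1 separates the 1-week groups (3.06 to 4.20 against 2.42 to 2.93) while Bglap overlaps at both weeks, and Gata2 and Gata3 are lower after DMM. How many of all genes separate at a single week was not counted.

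Genes were then taken in order of the pooled p, among those with the same sign in all 4 strata. Of all genes, 407 had an unadjusted p under 0.05 (1.44%), with 0.379% of genes higher and 1.06% lower (300 genes), where 1412.5 would be counted by chance if no gene differed. In all 4 strata 673 genes were higher after DMM (2.38%) and 1184 lower (4.19%). In each stratum both DMM arrays lay above both sham arrays for 6 genes (0.0212%) and below them for 8 (0.0283%). The 8 DMM and 8 sham values did not overlap for 0 genes (0%). How many genes chance alone would place in these strata counts was not computed, so they are a description only.

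Beside Nupr1 and Bglap, 10 genes made up the higher side. The uncharacterized transcript 5830444B04Rik was at the head, higher by 1.00 ± 0.25, with DMM arrays from -3.14 to -1.77 and sham arrays from -4.20 to -2.68. Prm1, the protamine that packs DNA in sperm, was higher by 1.25 ± 0.39 and lay above the sham mean of its stratum on 8 of 8 DMM arrays. Cib3, a calcium- and integrin-binding protein, was higher by 0.44 ± 0.12. It was among the 6 genes (0.0212% of all genes) whose arrays separated in every stratum, with DMM from -3.91 to -3.17 and sham from -4.43 to -3.72. Top1mt, the mitochondrial DNA topoisomerase, was higher by 0.51 ± 0.17 and Mlip, a lamin-interacting protein of muscle, by 0.70 ± 0.27. The others were 1700029M03Rik (0.95 ± 0.25), 1810062G17Rik (0.74 ± 0.22), 2500002B13Rik (0.34 ± 0.12), Ttc25 of the ciliary motor apparatus (1.09 ± 0.42) and the prolactin-releasing hormone receptor Prlhr (0.29 ± 0.11). Since the rule asked for 1 direction in 4 strata, agreement among the strata is not a finding about the genes it named, on the higher or the lower side.

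Gata2 and Gata3 stood among the 12 genes on the lower side. Gata2, a transcription factor of blood stem cells, mast cells and early megakaryocytes, ran from -1.61 to -0.37 on DMM arrays (median -0.86) and from -0.71 to 0.16 on sham arrays (median -0.47). Its difference was -0.54 ± 0.18, with -0.54 at both weeks, but it was unequal between slides, with -0.86 and -0.95 on slide 1 at 1 and 6 weeks and -0.23 and -0.12 on slide 2. Of the DMM arrays 7 of 8 lay below the sham mean of their stratum. Gata3, known for T cell and innate lymphoid fate, ran from -2.91 to -2.26 on DMM arrays (median -2.43) and from -2.58 to -1.76 on sham arrays (median -2.07). Its difference was -0.41 ± 0.13, with -0.80 and -0.46 on slide 1 and -0.26 and -0.12 on slide 2. The groups overlapped for both genes, Gata3 by the sham arrays of -2.34 and -2.58. The differences were -0.46 for Gata2 and -0.41 for Gata3 without the 6-week sham replicate 2.

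The other 10 genes on this side followed by size. The synaptotagmin Syt13 gave -0.66 ± 0.21 and the Mediator subunit paralogue Med12l -0.43 ± 0.15. Ccdc84 gave -0.37 ± 0.12 and lay below the sham mean of its stratum on 8 of 8 DMM arrays. The kinase activator Mob3b (-0.37 ± 0.13), the sorting nexin Snx30 (-0.36 ± 0.13), Jmjd4 (-0.35 ± 0.13), the death-associated kinase Dapk1 (-0.35 ± 0.12), the centrosomal protein gene Odf2 (-0.34 ± 0.12), the REST corepressor Rcor1 (-0.34 ± 0.12) and Vps13a (-0.28 ± 0.09) completed them. Unadjusted limma p for these 24 genes ran from 0.00118 to 0.0211, and adjusted p was at least 0.9993 for every one. Several genes had further probes that did not follow, such as Odf2 (5 probes, -0.34 to 0.09) and Mlip (3 probes, 0.09 to 0.74). The second probes of Ccdc84 (0.08 ± 0.12) and 2500002B13Rik (-0.10 ± 0.17) did not follow either, and the 3 of Jmjd4 ran from -0.35 to 0.12. Of the 5 Med12l probes (-0.55 to 0.39), only the one at 0.39 ± 0.54 lay above 0. It was well above background on 5 of 16 arrays.

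A panel of 24 genes of bone, cartilage and inflammation was measured. Only Bglap had an exact permutation p under 0.05 among these 24 tests, where 1.2 would be counted by chance, and the others ranged from 0.387 to 0.951. Of the genes of bone formation, the collagen gene Col1a1 differed by 0.17 ± 0.33, with DMM from 6.23 to 8.57 and sham from 6.47 to 8.61. The phosphatase Alpl, needed for mineral deposition, gave 0.14 ± 0.30 and the osteoblast transcription factor Sp7 0.02 ± 0.23. Among osteocyte genes the Wnt inhibitor Sost gave -0.24 ± 0.37 and the matrix protein Dmp1 0.13 ± 0.27. Resorption genes lay close to 0, with the osteoclast acid phosphatase Acp5 at -0.01 ± 0.19 and the collagen-cleaving protease Ctsk at -0.03 ± 0.30. RANKL (Tnfsf11), which drives osteoclast formation, gave -0.05 ± 0.27 and its decoy receptor Tnfrsf11b 0.12 ± 0.25.

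Col10a1, the collagen of hypertrophic cartilage, ranged from -3.53 to 0.70 on DMM arrays and from -4.93 to 2.71 on sham arrays. Its difference was 3.40 and 1.03 on the 2 slides at 1 week and -3.33 and 0.76 at 6 weeks, which averaged to 0.47 ± 0.86 (1.12 without the 6-week sham replicate 2). Acan, the aggregating proteoglycan of cartilage, gave 2.35, 0.26, -2.17 and 0.57 in the same order (pooled 0.25 ± 0.58). Prg4, the surface lubricant lubricin, gave 0.99, 0.62, -3.11 and -1.49 (pooled -0.75 ± 0.72), so that it was higher after DMM on both slides at 1 week and lower on both at 6 weeks. Col2a1, the main collagen of cartilage, gave -0.10 ± 0.40. Of the remainder, the proteases Mmp13 and Adamts5 gave -0.08 ± 0.32 and 0.06 ± 0.17. Postn (0.12 ± 0.39), Tgfb1 (-0.06 ± 0.14), Inhba (0.25 ± 0.40), Il6 (-0.25 ± 0.31), Il1b (0.12 ± 0.23), Cxcl12 (-0.02 ± 0.12) and Vegfa (0.02 ± 0.15) all lay within 1 standard error of 0 on either side.

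**Figure D2:**
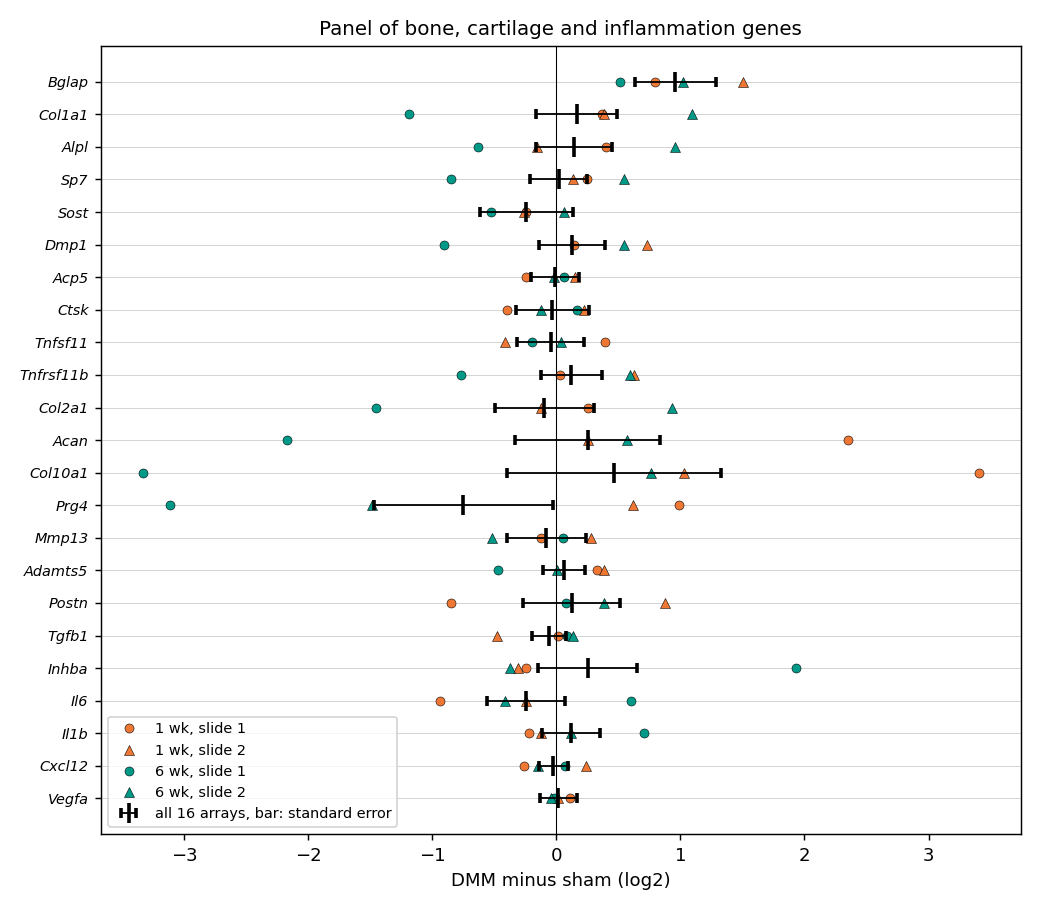
DMM minus sham on the log2 scale (x axis) for 23 panel genes (y axis); black marks are the pooled difference with its standard error, circles and triangles the 4 strata of week and slide. Bglap alone has all 4 strata above 0 (0.51 to 1.51), and the strata of Col10a1 spread from -3.33 to 3.40.

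Gene lists of cell types and pathways were described by the count and median of their measured members. Over all 28250 genes 47.5% were higher after DMM and the median difference was -0.01. The 32 lists held 746 measured genes, of which 0 were called and 14 had an unadjusted p under 0.05 (1.88%, against 1.44% of all genes), 8 higher and 6 lower by their measured values.

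Osteoblast genes were higher after DMM for 23 of 25 members, with a median of 0.14. The 3 with p under 0.05 were Bglap, Bglap2 and Ifitm5. The median was 0.28 at 1 week and 0.08 at 6 weeks, and by stratum 0.25 and 0.32 on the slides at 1 week, -0.42 and 0.83 at 6 weeks. Without the 6-week sham replicate 2 it was 0.34, with 23 members higher. On slide 1 alone it was -0.12 with 8 members higher, and in the authors' value table it was 0.05 with 17 members higher. Osteocyte genes were higher for 9 of 14 (median 0.05) and osteoclast genes for 8 of 21 (median -0.04).

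Fibrous matrix and fibroblast genes had the highest median of the lists, 0.21, with 36 of 42 members higher and 21 of them higher at both weeks. The collagen-binding proteoglycan Dcn was higher by 0.60 ± 0.26, with DMM from 5.02 to 6.48 and sham from 4.30 to 5.80, and above the sham mean of its stratum on 7 of 8 DMM arrays. Tnn (tenascin-W), a matrix protein of bone-forming edges, was higher by 1.08 ± 0.48, yet it was well above background on only 4 of 8 DMM and 3 of 8 sham arrays. The fibrillar collagen Col3a1 gave 1.00 ± 0.53, with 1.69 at 1 week and 0.30 at 6 weeks. The list's median was 0.39 at 1 week and 0.01 at 6 weeks, with -0.48 on slide 1 at 6 weeks and 0.54 on slide 2. Without the 4 arrays of slide 1 at 6 weeks it was 0.45, with 40 of 42 members higher. On slide 1 alone it was -0.01 with 20 of 42 higher, and on slide 2 alone 0.39 with 42 of 42.

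Among extracellular proteases and inhibitors, 17 of 29 members were higher (median 0.05). Serpinf1 (PEDF), a secreted serpin that bone cells make, was higher by 0.80 ± 0.35, from 4.16 to 6.36 on DMM and from 3.38 to 5.14 on sham arrays. The plasminogen activator Plat gave 0.94 ± 0.47 and the metalloprotease inhibitor Timp3 -0.26 ± 0.13.

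Cartilage genes were lower for 22 of 28 members, with a median of -0.18. Without the 6-week sham replicate 2 the median was -0.06 and 16 of 28 were lower. The small proteoglycan Epyc gave -0.86 ± 0.61, well above background on 2 of 8 DMM and 5 of 8 sham arrays, and chondromodulin (Cnmd) -0.69 ± 0.51, while the fibrillar collagen Col11a1 gave 0.61 ± 0.44. The median was 0.03 at 1 week and -0.61 at 6 weeks. At 6 weeks it was -1.72 on slide 1 and 0.42 on slide 2, and without the 4 arrays of slide 1 at 6 weeks the pooled median was 0.09 with 20 members higher. How much cartilage each dissection took in was not measured, and its part in these values was not tested.

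Megakaryocyte and platelet genes had the lowest median, -0.24, with 21 of 22 members lower. Mmrn1, a platelet granule protein, gave -0.50 ± 0.21, with DMM from 0.04 to 1.47 and sham from 0.46 to 1.95, and lay below the sham mean of its stratum on 7 of 8 DMM arrays. Rab27b of granule secretion gave -0.46 ± 0.22 and the platelet integrin Itgb3 -0.35 ± 0.18. The difference lay mostly at 1 week, with a median of -0.57 against -0.03 at 6 weeks, and the test of the difference between the weeks called 0 members. By stratum the medians were -0.71 and -0.39 at 1 week, then -0.07 and 0.03. Without the 6-week sham replicate 2 the pooled median was -0.31 with 20 members lower.

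Among the other blood and marrow lists, erythroid genes were higher for 25 of 30 (median 0.19), among them Ppox of heme synthesis (0.24 ± 0.18) and Urod (0.36 ± 0.31). Without the 6-week sham replicate 2 the erythroid median was 0.01 with 15 of 30 higher, and without all 4 arrays of slide 1 at 6 weeks -0.08 with 8 higher. B cell genes were higher for 17 of 24 (median 0.13). Their medians by stratum were -0.46 and 0.81 at 1 week, then 0.35 and -0.04, and 0.07 pooled without the 6-week sham replicate 2. On slide 1 alone 7 of 24 were higher (median -0.05) and on slide 2 alone 21 of 24 (median 0.38). Neutrophil granule genes were higher for 15 of 26 (median 0.04), and for 5 of 26 (median -0.08) without the 6-week sham replicate 2. Of the macrophage genes 12 of 25 were higher (median -0.02). T and NK cell genes were lower for 17 of 24 (median -0.07), with Il2rb at -0.37 ± 0.17, Tbx21 at -0.34 ± 0.20 and Eomes at -0.29 ± 0.18. On slide 1 alone 6 of 24 were higher (median -0.24) and on slide 2 alone 14 of 24 (median 0.03). Of the RANKL axis 6 of 7 members were lower (median -0.08), with the macrophage growth factor Csf1 at -0.28 ± 0.15, Il34 at -0.21 ± 0.15 and Lgr4 at -0.25 ± 0.26. Further probes of Csf1 gave -0.09 ± 0.12 and -0.08 ± 0.12. On slide 1 alone 1 of 7 members was higher (median -0.37) and on slide 2 alone 5 of 7 (median 0.12). Without all 4 arrays of slide 1 at 6 weeks 4 of 7 were higher (median 0.004).

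Inflammatory mediators had no common direction, with 12 of 26 higher (median -0.02), and 4 had p under 0.05. The fourth beside those below was the receptor Il6ra (-0.28 ± 0.13), named after its values were seen. Saa3, an acute-phase protein of the serum amyloid family, was higher by 1.27 ± 0.57, from -4.86 to 1.00 on DMM arrays (median -3.20) and from -5.91 to -2.47 on sham arrays (median -3.67). Only 5 of 8 DMM arrays lay above the sham mean of their stratum, and DMM replicate 4 at 1 week gave the 1.00. Il11, a cytokine that acts on bone and fibroblasts, gave -0.33 ± 0.14, with 7 of 8 DMM arrays below that mean. Il1a, also among the 4, was well above background on 0 of 8 DMM and 4 of 8 sham arrays, so neither a size nor a direction is given for it. Of the stress response 18 of 24 members were higher (median 0.08), with Nupr1 first, the transcription factor Ddit3 at 0.33 ± 0.21 and the cystine carrier Slc7a11 at -0.44 ± 0.34. The second probe of Ddit3 gave 0.16 ± 0.15 and that of Slc7a11 0.09 ± 0.38. Interferon genes were higher for 19 of 28 (median 0.04), and Irf1 gave -0.16 ± 0.09 and Rsad2 0.41 ± 0.35 (second probe 0.05 ± 0.22). Without the 6-week sham replicate 2, 8 of 28 were higher (median -0.12). On slide 1 alone 26 of 28 were higher (median 0.36) and on slide 2 alone 1 of 28 (median -0.26).

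Housekeeping and cell division lists showed small pooled shifts that many members shared. Respiratory chain genes were higher for 32 of 33 members (median 0.15), 28 of them at both weeks, with Uqcrq at 0.22 ± 0.13, Cox8a at 0.19 ± 0.12 and Ndufa9 at 0.26 ± 0.17. Ribosomal protein genes were higher for 38 of 40 (median 0.13), 34 of them at both weeks, with Rpl10 at 0.23 ± 0.17 and Rps15 at 0.13 ± 0.10. Cell division genes were higher for 28 of 30 (median 0.11), but only 4 of them at both weeks. Their median was -0.08 at 1 week and 0.30 at 6 weeks. Pooled, Ccnb1 gave 0.20 ± 0.18, Ccnb2 0.31 ± 0.29 and Nusap1 0.29 ± 0.28. The 6-week sham replicate 2 moved with all of these. Without it 27 of 33 respiratory chain genes (median 0.03), 38 of 40 ribosomal genes (median 0.06) and 9 of 30 cell division genes (median -0.02) were higher. Without all 4 arrays of slide 1 at 6 weeks these counts were 14 of 33 (median -0.02), 23 of 40 (median 0.01) and 0 of 30 (median -0.12). On slide 2 alone they were 4 of 33 (median -0.06), 21 of 40 (median 0.00) and 0 of 30 (median -0.16). In the authors' value table the ribosomal median was -0.01 with 16 of 40 members higher, and Rps15 turned below 0.

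The remaining lists had medians between -0.08 and 0.07 and are given by their counts of members higher. They were adipocyte (16 of 23), endothelium and angiogenesis (19 of 27), hypoxia and glycolysis (16 of 26), Wnt ligands and antagonists (10 of 18), Wnt targets and mediators (9 of 22), TGF-beta and BMP pathway (15 of 32) and tendon, ligament and synovial lining (6 of 12). So were hypertrophic cartilage (7 of 12), immediate early and heat shock (13 of 27), marrow stromal reticular cell (8 of 18), circadian clock (6 of 18), nerve growth and Schwann cell (7 of 24) and skeletal muscle (12 of 27). Muscle RNA was uneven between arrays. Averaged over the list, relative to each gene's mean, it ran from -0.41 to 0.71 on DMM and from -0.44 to 0.81 on sham arrays. The giant sarcomere gene Neb differed by -0.60 ± 0.28, Myoz1 by 0.86 ± 0.53 and Ckm by 1.02 ± 0.66. Myoz1 was well above background on 10 of 16 arrays, and Ckm on 4 of 8 DMM and 1 of 8 sham arrays.

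No list kept its sign in all 4 strata (0 of 32). The medians of 15 of 32 lists had 1 sign on both slides at 1 week, and those of 3 lists did so at 6 weeks. At 6 weeks 29 of 32 lists thus pointed in opposite directions on the 2 slides, and slide 1 at that week holds the 6-week sham replicate 2. Scaling turned the sign of some medians, most of them near 0, and of the ribosomal median of 0.13. The authors' value table turned 6 lists, which were ribosomal proteins, extracellular proteases and inhibitors, hypertrophic cartilage, hypoxia and glycolysis, neutrophil granule and osteocyte. With normexp background correction 3 turned (TGF-beta and BMP pathway, immediate early and heat shock, macrophage and monocyte), and with quantile normalization 1 (hypertrophic cartilage). Leaving out the 6-week sham replicate 2 turned 8 of 32 lists, among them cell division, osteoclast, neutrophil granule and interferon response. Without all 4 arrays of slide 1 at 6 weeks 13 of 32 turned, among them cartilage, erythroid, cell division and respiratory chain. On slide 1 alone 9 turned, osteoblast and fibrous matrix included, and on slide 2 alone 17.

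**Figure D3:**
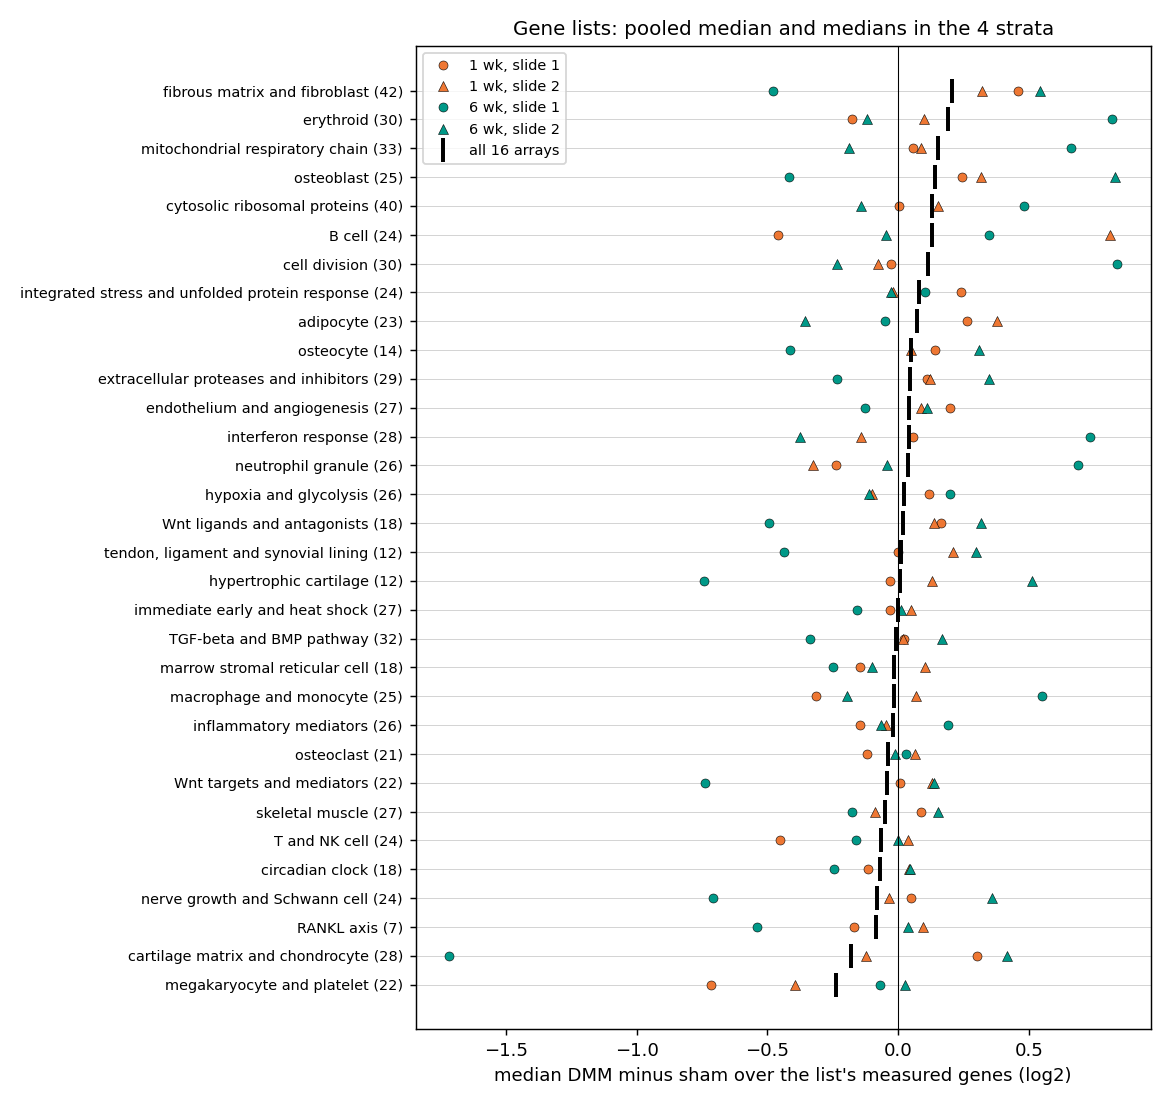
Median DMM minus sham on the log2 scale (x axis) of 32 gene lists (y axis, measured members in brackets); black ticks are all 16 arrays, orange marks 1 week, green marks 6 weeks, circles slide 1 and triangles slide 2. The 6-week circles and triangles mostly fall on opposite sides of 0, such as -1.72 and 0.42 for cartilage genes, while the pooled ticks stay within -0.24 to 0.21.

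The 2 times were then compared gene by gene. Each week has its own sham arrays, so the 2 differences share slides but no arrays. At 1 week limma called 0 genes (347 at an unadjusted p under 0.05, smallest adjusted p = 0.9999) and at 6 weeks 0 genes (297, 0.9777). The difference had the same sign at both weeks for 14328 of 28250 genes, or 50.7%. Across genes, which are not independent, the differences at 1 and 6 weeks had a Pearson correlation of -0.01 and a Spearman correlation of 0.01. Without DMM replicate 2 at 1 week the share was 59.9%, and without DMM replicate 1 at 1 week 44.8%. Of the 407 genes with a pooled p under 0.05, 406 had 1 sign at both weeks, as averaging the weeks favours.

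Some genes ran in opposite directions at the 2 weeks, though the test of that difference called 0 genes (274 at an unadjusted p under 0.05). Cfd (adipsin), a complement factor secreted by fat cells, gave 1.45, 0.79, 2.54 and -0.06 on the 1-week sham arrays and 4.76, 1.98, 3.35 and 3.40 on the DMM arrays. At 6 weeks it gave 3.66, 2.45, 6.03 and 5.07 on sham and 2.42, 1.64, 4.74 and 3.80 on DMM arrays. DMM minus sham was thus 2.25 and 2.14 on the slides at 1 week and -1.02 and -1.28 at 6 weeks (mean -1.15). The cytochrome Cyp2f2 gave 2.14 and 2.10 at 1 week and -1.17 and -1.29 at 6 weeks, and the lipid droplet protein Plin4 1.41 and 1.08, then -1.31 and -0.88. Gm4925 gave 0.64 and -0.40 at the 2 weeks. In the other direction Cox6a2, a muscle form of a respiratory chain subunit, gave -0.36 and 0.69, the pigment cell gene Mlana -0.35 and 0.54, Cfap100 -0.64 and 0.22, and Gm19696 -0.58 and 0.32. By slide, Cox6a2 gave -0.71 and -0.004 at 1 week, then 1.05 and 0.33. Its 1.05 includes the 6-week sham replicate 2 at -0.17 (others 0.91 to 1.02). Mlana gave -0.72 and 0.01, then 0.64 and 0.44. For Cfap100 the slides gave -0.71 and -0.57, then 0.34 and 0.10, and for Gm19696 -0.85 and -0.32, then 0.63 and 0.02. On slide 2 several of these values thus lay close to 0. Averaged over the weeks these 8 genes lay between -0.21 and 0.52.

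**Figure D4:**
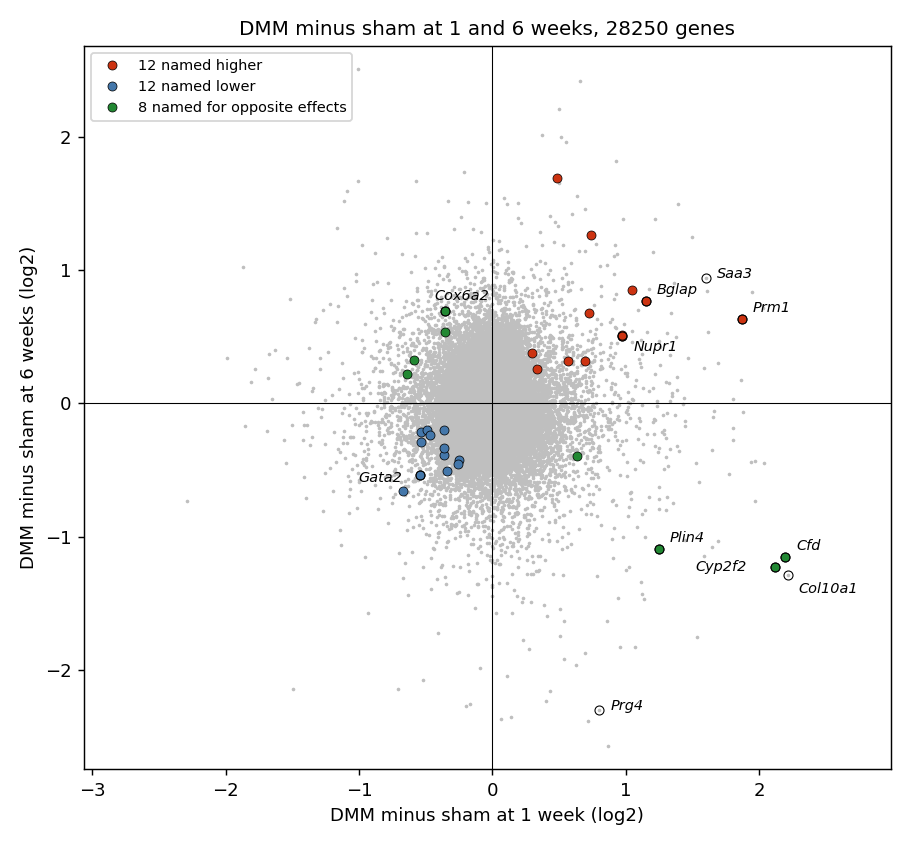
DMM minus sham at 1 week (x axis) against 6 weeks (y axis), both log2, for 28250 genes (grey); red and blue are the 12 named genes higher and 12 lower after DMM in all strata, green the 8 with opposite differences, and open circles other genes of the text. The cloud has no slope (Pearson -0.01), Bglap and Nupr1 lie at 1.15 and 0.76 and at 0.98 and 0.50, and Plin4 lies at 1.25 and -1.09.

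The precision bounds what could be called. The median standard error was 0.19 for the pooled difference and 0.27 at a single week, and the median size of the pooled difference was 0.11. Differences above 1 were measured for 49 genes and none of them was called. A p above the threshold does not show that a gene was the same after both operations.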

How the data were processed

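Each Agilent 1-colour array was scanned with Feature Extraction 10.7.3.1, per the file headers, and the deposited processed intensity of each spot is background-corrected by that software. The authors also deposited a value table, read here as log2. The submitters' processing notes name limma 3.20.9, and the table's normalization is not given in the sources used here. Here control spots and outlier spots were removed and repeated spots averaged. From each log2 intensity the array's 75th percentile was subtracted. Probes well above background on at least 4 of 16 arrays entered, and a gene took its brightest probe by mean level. Between 9.26% and 19.7% of spot values were software surrogates for signals near background. Linear models with surgery, week and slide were fitted with limma 3.58.1 in R 4.3.3 with Benjamini-Hochberg adjustment across every gene and calls at 0.05. The fits were tested on simulated data with independent noise, no outlying array and planted differences larger than nearly all of those measured here. That test therefore cannot show whether differences of the measured size would be found. Single weeks and their difference came from a model with 1 mean per group plus slide. Named genes were the 12 per direction with the smallest p, 1 sign in all 4 strata and a signal well above background on at least 6 of 8 arrays of each surgery; the panel; the 3 members of a list with the smallest p; and the 4 per direction with the smallest p for a difference between weeks. Some genes that the rule names are not reported here. Alternatives changed the background correction, normalization, filter, probe rule, slide term, weights and arrays. The comparison, members, panel, lists and rules were chosen with earlier results of these data known. Symbols came from RefSeq tables (GRCm38.p6) and probe coordinates from the files (mm9).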

Additional observations from a re-analysis of the deposited data

Results flagged for a closer look

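In 24 of 380 checks within a group of 4 arrays, 1 array lay far from the other 3, and chance flags about 1 in 20 groups. The checks covered the named genes and the signal at the 75th percentile, and all 24 flags were of genes. All values are log2 signals relative to the 75th percentile of the array. The array of sham replicate 2 at 6 weeks stood apart for Ttc25 at -2.692 (others -5.62 to -5.22), Cox6a2 at -0.1687 (others 0.908 to 1.02), Inhba at -3.339 (others -0.252 to 0.262), Urod at 3.811 (others 5.77 to 5.99), Ndufa9 at 1.458 (others 2.56 to 2.65), Ccnb1 at 1.583 (others 2.63 to 2.83), Ccnb2 at 2.172 (others 4.41 to 4.51), Nusap1 at 0.2877 (others 2.41 to 2.72), Rsad2 at 0.1353 (others 2.52 to 2.68). The array of sham replicate 4 at 1 week stood apart for Cfap100 at -2.638 (others -2.12 to -2.02), Saa3 at -2.466 (others -3.7 to -3.58), Eomes at -3.198 (others -2.12 to -1.95). The array of DMM replicate 2 at 1 week stood apart for Cfap100 at -2.56 (others -2.97 to -2.94), Gata3 at -2.905 (others -2.41 to -2.32), Acan at -1.672 (others -0.202 to 0.059). The array of sham replicate 4 at 6 weeks stood apart for Gata3 at -2.578 (others -2.09 to -2.06). The array of DMM replicate 1 at 1 week stood apart for Snx30 at 0.2438 (others -0.268 to -0.234), Tnfsf11 at -1.598 (others -3.61 to -3.39). For sham replicate 2 at 1 week it was Postn at 0.7647 (others -0.0263 to 0.0433). For DMM replicate 3 at 1 week it was Mmrn1 at 1.098 (others 0.0422 to 0.0928). For DMM replicate 2 at 6 weeks it was Rab27b at 0.4632 (others -0.117 to -0.0534), Cnmd at -3.921 (others -0.796 to -0.237). For sham replicate 1 at 6 weeks it was Il1a at -4.937 (others -6.29 to -6.14). For sham replicate 1 at 1 week it was Lgr4 at -1.474 (others -2.67 to -2.52). The sham replicate 2 at 6 weeks gave 9 of the 24, and its part in the other results was not tested beyond leaving it out.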

How the results depend on the processing

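No setting called a gene in the pooled comparison, at 1 week, at 6 weeks, for the difference between weeks or in a list, and the smallest pooled adjusted p was 0.2878 (limma, without DMM replicate 1 at 1 week). No paired analysis was possible because no label ties any sham mouse to a DMM mouse. The share of genes with 1 sign at both weeks was 46.86% with normexp, 52.44% without a filter, 50.07% in the authors' value table, 48.25% with array weights, 46.86% on slide 1 alone and 51.75% without the 4 arrays of slide 1 at 6 weeks, a setting chosen after seeing the data. Leaving out single arrays gave 44.76% to 59.87%. Panel genes under an exact permutation p of 0.05 numbered 1, and 0 in the authors' value table and without the 4 arrays. Leaving out single arrays gave 0 to 1. A single slide has too few arrangements for any exact permutation p under 0.05, so its count of 0 was fixed in advance. Bglap gave an exact permutation p of 0.0556 on slide 2, the smallest that a single slide allows, and 0.333 on slide 1. Genes higher and lower at an unadjusted p under 0.05 were 0.379% and 1.06% of all genes at first. The counts became 645 and 1275 with array weights, 49 and 166 with normexp, 84 and 208 without the slide term, 197 and 325 without a filter, 68 and 418 on slide 1, 820 and 400 on slide 2, 371 and 468 without the 6-week sham replicate 2 and 821 and 456 without the 4 arrays. Some genes turned sign, none of them called in any setting, and the cause was not tested. With array weights these were Acp5 (0.0712), Ctsk (0.08248), Col2a1 (0.2166), Mmp13 (0.00587), Inhba (-0.036), Vegfa (-0.05562). In the authors' value table these were Sp7 (-0.0387), Rps15 (-0.004152). With the mean of all probes these were Vegfa (-0.02969). With normexp these were Tnfsf11 (0.001782). With quantile normalization these were Acp5 (0.04777). On slide 1 alone these were Col1a1 (-0.4082), Alpl (-0.1177), Sp7 (-0.3007), Dmp1 (-0.3798), Tnfsf11 (0.09913), Tnfrsf11b (-0.3697), Adamts5 (-0.07498), Postn (-0.3853), Tgfb1 (0.05134). On slide 2 alone these were Acp5 (0.06639), Ctsk (0.05071), Col2a1 (0.4058), Inhba (-0.3389), Il1b (-0.0009818), Cxcl12 (0.04492), Vegfa (-0.01389), Tbx21 (0.01232), Eomes (0.06661), Il34 (0.01004), Lgr4 (0.302), Ccnb1 (-0.0744), Ccnb2 (-0.1576), Nusap1 (-0.1288), Rsad2 (-0.0507). Without the 4 arrays these were Tnfsf11 (0.003641), Col2a1 (0.3553), Prg4 (0.03945), Inhba (-0.3063), Il1b (-0.07364), Lgr4 (0.1454), Ccnb1 (-0.03791), Ccnb2 (-0.07805), Nusap1 (-0.06925). Leaving out single arrays turned the sign of Alpl (-0.01816 to 0.3004), Sp7 (-0.07765 to 0.1865), Dmp1 (-0.03886 to 0.2475), Acp5 (-0.1425 to 0.07863), Ctsk (-0.1968 to 0.1612), Tnfsf11 (-0.2959 to 0.07352), Tnfrsf11b (-0.02431 to 0.2324), Col2a1 (-0.3429 to 0.1533), Acan (-0.09558 to 0.6567), Col10a1 (-0.03901 to 1.119), Mmp13 (-0.3256 to 0.1244), Adamts5 (-0.03629 to 0.1426), Postn (-0.08316 to 0.4506), Tgfb1 (-0.1311 to 0.005834), Inhba (-0.1548 to 0.3597), Il6 (-0.4015 to 0.01191), Cxcl12 (-0.0976 to 0.008129), Vegfa (-0.05607 to 0.06749). Array number and dim signal limit the precision: Il1a, Epyc, Tnn, Myoz1 and Ckm were near background on many arrays.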
